A study of Mus musculus with 4 samples.

Results

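The genes described here encode sorting nexins, Vps (vacuolar protein sorting) proteins and endosomal SNAREs, the machinery that sorts membrane proteins in endosomes. Members were the genes whose symbol is Snx or Vps followed by a number (a single further letter was allowed for Vps), together with Vamp3, Vamp4, Vamp7 and Vamp8. This rule took 65 of the 35857 genes listed, namely 30 Snx, 32 Vps and 3 Vamp genes. Vamp7 was not analysed here. Expression was measured as TPM, a length-corrected share of all transcripts, in 4 libraries of glial progenitors grown from neural stem cells of the embryonic mouse cerebral cortex (C57BL/6). In each case RNA was taken 24 hr after glial differentiation had been induced. There were 2 libraries from wild-type cells (control) and 2 from Qk-/- cells (Qk_KO), a knockout of the gene for Quaking, an RNA-binding protein of glia. Nothing in the labels tells how the knockout was made or if each library had its own culture, so p-values measure only the spread between these libraries, which may be technical.

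Endosomes receive proteins taken up from the cell surface and either return them to the surface or the Golgi or pass them to the lysosome. Retromer, a trimer of Vps35, Vps26 and Vps29, and the sorting nexins gather cargo into recycling tubules. Sorting nexins share a PX domain, which in many but not all of them binds the lipid PI3P. ESCRT complexes sort ubiquitinated cargo into vesicles inside the endosome, the HOPS, CORVET and GARP tethers hold membranes together before fusion, and SNAREs drive the fusion. Some subunits of this machinery come as sets of related genes, such as Vps26a and Vps26b or Vps37a to Vps37d, and these can be compared with each other. The comparison of Qk_KO with control asks how RNA levels of glial progenitors differ between these genotypes.

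Qk stood at 208 and 215 TPM in control and at 36.1 and 43.7 TPM in Qk_KO, so each library lay on the side of its label. Qk RNA thus remained at 18.9% of control in Qk_KO, and these data hold no protein levels. TPM keeps no read depth, so no counting interval is given. The markers of neural stem cells and radial glia summed to 5910 and 5748 TPM in control and 6262 and 6047 TPM in Qk_KO, and those of glial progenitors and astrocytes to 1500 and 1327 against 1289 and 1404 TPM. These sums, made up mostly of Vim and Fabp7 and of Olig1 and Olig2, hide single genes. Of the 7 stem cell markers 1 was called (adjusted p under 0.05), Pax6, higher at 47.4 against 20.9 TPM (adjusted p = 0.0423, limma with Benjamini-Hochberg). Of the 6 glial markers 2 were called in opposite directions, Slc1a3 lower at 133 against 387 TPM (adjusted p = 0.0324) and Aqp4 higher at 32.2 against 4.35 TPM (adjusted p = 0.0123). Aldh1l1 stood at 169 against 42.4 TPM and was not called (adjusted p = 0.0569). Oligodendrocyte precursor markers lay lower in Qk_KO in 4 of 4 genes, 1 of them called (summed 94.6 and 115 against 19.1 and 40.8 TPM), and microglia and macrophage markers in 9 of 10, none called (summed 60.2 and 49.6 against 28.6 and 20.4 TPM, with Aif1 at 0 in Qk_KO replicate 2). Of the 6 neuron markers 3 lay higher in both Qk_KO libraries, 1 of them called (summed 475 and 303 against 706 and 615 TPM). The part of these shifts in the results below was not tested, and in bulk RNA fewer cells of a type and less RNA per cell cannot be told apart.

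In all, 5 genes of endosomal sorting fell in the Qk_KO cells (called lower) and none of the members was called higher. Those that fell were Snx5, a curvature-sensing subunit of the tubules that retromer cargo leaves in, Vps35, the backbone of retromer, Snx27, the adaptor that brings PDZ-binding receptors to retromer, Vamp3, the v-SNARE of recycling endosomes, and Vps37a, a subunit of ESCRT-I. Of the 63 members with a mean of at least 1 TPM, 5 were lower, 0 higher and 58 not called at an adjusted p of 0.05 (limma on log2(TPM + 1), Benjamini-Hochberg over 13260 genes). That is 7.94% of the members tested, beside 3.24% of all genes tested that were called in either direction, 1.42% lower and 1.83% higher. Most members differed little. The log2 fold changes of the 63 had a median of 0.01, next to 0.04 over all genes tested. Of the 63, 29 were below 0 and 40 were smaller than 0.25 in size. Over all 13260 genes tested, 6041 were below 0 and 7064 were smaller than 0.25. The Qk_KO values lay below both controls for 22 members and above both for 21, where 27.5% and 33.6% of all genes tested did so, and they overlapped for 20. The groups thus stood apart for 68.3% of members, near the 61.1% of all genes tested. Summed over the 65 members, the level was 3929 and 3936 TPM in control and 3565 and 3682 TPM in Qk_KO.

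The calls other than that of Snx5 needed all 4 libraries. Without control replicate 1 or without control replicate 2 no member was called, and only Snx5 was called without Qk_KO replicate 1 or without Qk_KO replicate 2. The call of Qk, the gene knocked out, was also lost without control replicate 1 or control replicate 2, with log2 fold changes of -2.41 and -2.36. Such fits leave a single library in a group, so a call lost there says little about the gene. No member was called with no filter on low genes or without limma's mean-variance trend either, where 21 and 15 members had an unadjusted p under 0.05.

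**Figure D1:**
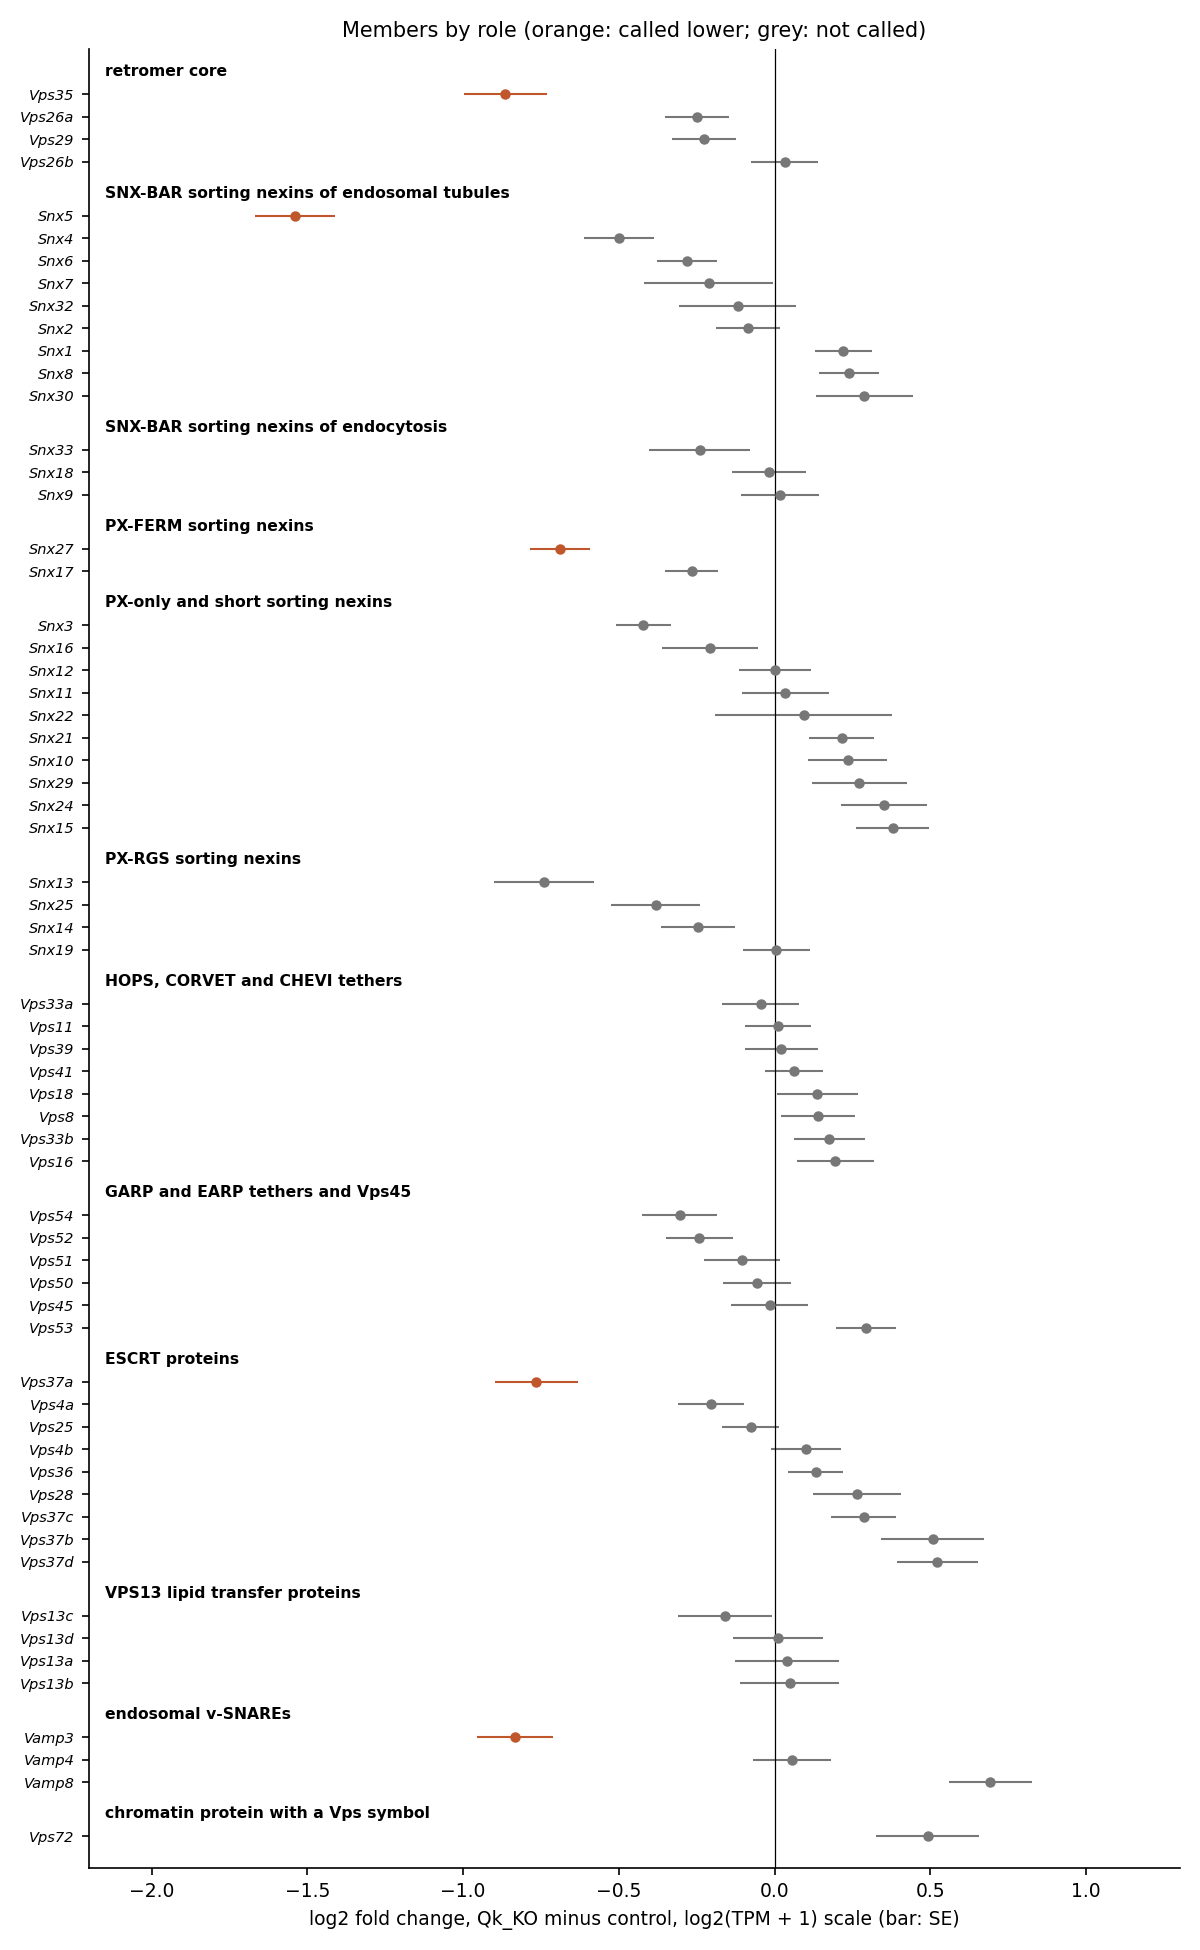
Log2 fold change of the 63 members tested (x axis, Qk_KO minus control on the log2(TPM + 1) scale, bars SE), grouped by role. The 5 orange points are the members called lower, from -1.54 for Snx5 to -0.69 for Snx27, and the grey points, not called, lie between -0.74 and 0.69.

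Quaking is known to bind RNA at the core ACUAAC or ACUAAU, often in 3' untranslated regions, where it can change the stability of the message. The longest annotated 3' UTR of each gene in GENCODE M21 (GRCm38) was searched on the sense strand for the DNA letters ACTAAC or ACTAAT. Matches that overlap were each counted. Of the 5 members that fell, 4 held at least 1 such match and 3 held ACTAAC. The matches of Snx5 and Vps35, the ACTAAC matches of Snx27 and the single match of Vps37a are shown because these are the members whose level fell. Capitals mark the motif, with 10 bases on each side.
Snx5 first match, chr2:144250986-144251011, minus strand: cttggacataACTAATccttttctta
Snx5 second match, chr2:144250424-144250449, minus strand: tgtaacctttACTAACatcttaggga
Vps35 first match, chr8:85260846-85260871, minus strand: tattctggctACTAATggagctctcc
Vps35 second match, chr8:85260772-85260797, minus strand: aatgaggaatACTAACccaaacatac
Snx27 first match, chr3:94501724-94501749, minus strand: gtctttcttcACTAACcaagaaaata
Snx27 second match, chr3:94500252-94500277, minus strand: ttgtatcaggACTAACcctgacatca
Vps37a, chr8:40549172-40549197, plus strand: gatcaaaattACTAATcaattgagct

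Long 3' UTRs hold such short words more often, so each share is set beside genes of like length. The 3' UTR of Vps35 had 738 bases and 2 matches, while 18.3% of the 1354 genes tested within 20% of that length held any. That of Snx5 had 1059 bases and 2 matches, beside 27.2% of 1709 genes. Snx27 held 5 matches in 4513 bases and Vps37a 1 in 4859 bases, lengths at which 71.5% and 75.2% of genes held at least 1. Vamp3, with 1730 bases, held none. Over all 12264 genes with a 3' UTR 35.1% held a match. Of such genes called lower 55.0% of 169 did, and of those called higher 25.2% of 230. The genes called lower and higher also differed in median 3' UTR length, at 1458 and 1140 bases. Their median GC content (longest transcript) was 47.0% and 53.0%, beside 49.9% over all 12264, and the searched words are rich in A and T. Among the members a match was held by 18 of 63, or 28.6%. Of these 18, 10 lay below both controls in Qk_KO and 5 above, and of the 45 members without a match 12 lay below and 16 above. Over all genes tested the shares were 27.5% below and 33.6% above. Of the 12264 with a 3' UTR, whether or not they held a match, 3454 lay below and 4219 above. The median log2 fold change was -0.15 in the 18 and 0.01 in the 45, and the median GC content was 46.4% and 50.3%. The difference between these sets, and the part of length or GC content in it, was not tested. A match is a string of letters and does not show that Quaking binds there.

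Snx5 had the largest fall of any member. The controls held 111 and 136 TPM, the Qk_KO libraries 43.2 and 40.0 TPM. Both Qk_KO libraries lay far under both controls, and they were closer to each other than the controls were. The mean went from 123 ± 17.4 to 41.6 ± 2.23 TPM (SD, n = 2), or 33.7% of control, with log2 fold change -1.54 (SE 0.13, adjusted p = 0.0210, limma with Benjamini-Hochberg). Without control replicate 1 the adjusted p was 0.0573, and without control replicate 2 it was 0.142. Snx5 (Entrez gene 69178) spans 144250123 to 144270906 of chromosome 2 (GRCm38, minus strand) and shares up to 206 exonic bases with Mgme1 on the other strand. Mgme1 itself was not called (adjusted p = 0.160). It too lay below both controls in Qk_KO, at 15.6 and 19.7 against 13.4 and 12.6 TPM, as did 27.5% of all genes tested. How reads over shared bases were assigned is not given in the sources used here. In all, 23 members share exonic bases with another gene in GENCODE M21. Some do so on the same strand, such as Vps25 with Ramp2 (up to 637 bases) and Vps51 with Tm7sf2 (up to 532).

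The closest relative of Snx5 is Snx6, which can take its place beside Snx1 or Snx2 in the dimers that coat retrograde tubules. Snx6 was at 72.3 and 75.8 TPM in control and 62.4 and 59.0 TPM in Qk_KO, lower in both knockout libraries but not called (log2 fold change -0.28, adjusted p = 0.132, limma with Benjamini-Hochberg). A ratio within a library is free of scaling between libraries. The ratio of Snx5 to Snx6 was 1.54 and 1.79 in control and 0.692 and 0.678 in Qk_KO, so Snx5 was the more abundant of the pair in the controls and Snx6 in the knockouts. An exact permutation test of 2 against 2 libraries gives p = 0.333 (two-sided) for any such complete separation, the smallest it allows.

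On the other side of the dimer, Snx1 stood at 72.5 and 72.6 TPM in control and 86.6 and 82.7 TPM in Qk_KO (log2 fold change 0.22, not called), and Snx2 at 57.1 and 57.4 against 56.6 and 51.3 TPM. The 4 subunits together came to 313 and 342 TPM in control and 249 and 233 TPM in Qk_KO. Snx5 made up 35.5% and 39.8% of that sum in control and 17.4% and 17.2% in Qk_KO. The other sorting nexins of endosomal tubules were not called. Snx4, which acts in recycling and autophagy, had 81.1 and 87.2 TPM in control and 63.5 and 55.1 TPM in Qk_KO (log2 fold change -0.50, adjusted p = 0.0676, limma with Benjamini-Hochberg). The rest of that group ran from -0.21 for Snx7 to 0.29 for Snx30. Snx9, Snx18 and Snx33, which bind dynamin in endocytosis, overlapped between groups, with Snx9 at 37.8 ± 4.79 and 38.1 ± 0.665 TPM and Snx18 at 29.6 ± 1.14 and 29.3 ± 2.78 TPM (SD, n = 2).

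**Figure D2:**
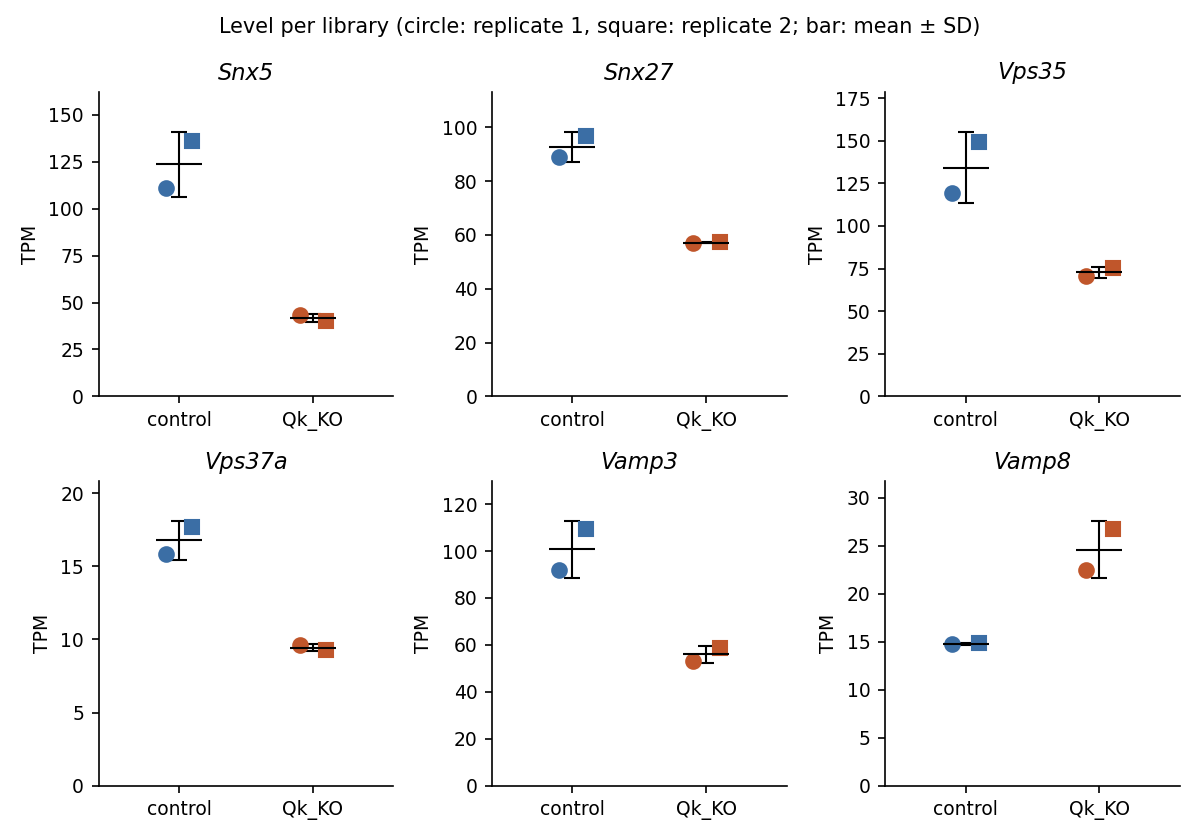
TPM (y axis, from 0) in each library for the 5 members called lower and for Vamp8, with the mean and SD of the 2 libraries of a group. Qk_KO values lie under both controls for the first 5, as for Snx5 at 43.2 and 40.0 against 111 and 136 TPM, and above both for Vamp8, which was not called.

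Within retromer only Vps35 was called. It was at 119 and 149 TPM in control and at 70.6 and 75.2 TPM in Qk_KO, and the gap between groups was wider than the gap between the controls. The mean fell from 134 ± 21.01 to 72.9 ± 3.22 TPM (SD, n = 2), or 54.3% of control, with log2 fold change -0.86 (SE 0.13, adjusted p = 0.0428, limma with Benjamini-Hochberg). Leaving out control replicates 1 or 2 gave adjusted p = 0.0887 and 0.239, and leaving out Qk_KO replicates 1 or 2 gave 0.0961 and 0.0797. Vps35 (Entrez gene 65114) spans 85260392 to 85299802 of chromosome 8, minus strand, and shares up to 171 exonic bases with Orc6 on the other strand. Orc6 was itself not called (adjusted p = 0.310). It too lay below both controls in Qk_KO, at 38.5 and 39.6 against 35.9 and 32.5 TPM.

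The partners of Vps35 moved less and were not called. Vps29, the small subunit that recruits regulators, was the most abundant of the complex at 215 and 232 TPM in control and 202 and 180 TPM in Qk_KO (log2 fold change -0.23). The Vps26 position can be filled by either of a pair of paralogs. Vps26a was at 49.3 and 54.0 against 42.5 and 44.1 TPM (log2 fold change -0.25), and Vps26b at 36.8 and 36.4 against 35.6 and 39.3 TPM, with groups that overlapped. Vps35 therefore stood at 1.39 and 1.65 times the summed Vps26 level in control and at 0.904 and 0.902 times in Qk_KO, with no overlap between groups (exact permutation p = 0.333, two-sided, the smallest possible). The subunits of retriever, a related recycling complex, are listed under older symbols and are no members. Dscr3 (now Vps26c) had 76.8 and 82.2 TPM in control and 62.2 and 72.7 TPM in Qk_KO, and 9030624J02Rik (now Vps35l) had 77.4 and 70.7 against 74.0 and 76.9 TPM, neither called.

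Snx27 joins a PX domain to a PDZ and a FERM domain and links receptors to retromer. Its level was 88.8 and 96.7 TPM in control and 56.9 and 57.3 TPM in Qk_KO, so the knockout libraries lay close together and well below both controls. The mean fell from 92.8 ± 5.61 to 57.1 ± 0.270 TPM (SD, n = 2), with log2 fold change -0.69 (SE 0.10, adjusted p = 0.0424, limma with Benjamini-Hochberg). Without control replicates 1 or 2 the adjusted p was 0.101 and 0.249, and without Qk_KO replicates 1 or 2 it was 0.0944 and 0.0783. Snx27 (Entrez gene 76742) spans 94497544 to 94582716 on chromosome 3, minus strand. The related Snx17, which recycles integrins and LDL receptor family members by way of retriever, was higher in level at 190 and 184 TPM in control and 153 and 157 TPM in Qk_KO, and was not called (log2 fold change -0.27, adjusted p = 0.121). When the relation of each library to transcript GC was taken out (added after the values were seen), its adjusted p was 0.0479. Without limma's mean-variance trend it was 0.200. Snx31, the remaining gene of this class, did not exceed 0.04 TPM in any library and was not tested.

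The sorting nexins built of little more than a PX domain held the most abundant member. Snx3, which recruits retromer to PI3P for the return of Wntless, was at 452 and 456 TPM in control and 349 and 328 TPM in Qk_KO. These groups did not overlap, at 74.6% of control, yet the adjusted p was 0.0600 (log2 fold change -0.42, SE 0.09, limma with Benjamini-Hochberg). That value was 0.0395 with the GC trend removed and 0.114 without limma's mean-variance trend. Snx12, its near relative, overlapped between groups at 63.2 ± 4.20 and 63.3 ± 6.07 TPM (SD, n = 2). In this class 10 genes were tested and none called, from -0.42 for Snx3 to 0.38 for Snx15. Of the 10, 8 were above 0, as were 7219 of all 13260 genes tested. Snx20, a leukocyte sorting nexin that binds the selectin ligand PSGL-1, lay between 0.21 and 0.45 TPM and was not tested. Snx22 was barely over the filter, at 1.72 ± 0.481 and 1.93 ± 0.778 TPM.

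Among the sorting nexins with an RGS homology domain, which sit at contacts of the endoplasmic reticulum, 3 of 4 lay below both controls, as did 27.5% of all genes tested, and none was called. Snx13 was at 25.2 and 29.3 TPM in control and 14.1 and 17.9 TPM in Qk_KO, or 58.6% of control (log2 fold change -0.74, SE 0.16, adjusted p = 0.0638, limma with Benjamini-Hochberg). Snx25 was at 48.5 and 56.2 against 36.0 and 44.1 TPM (log2 fold change -0.38). Snx19 stood at 42.0 ± 2.98 and 42.1 ± 1.34 TPM (SD, n = 2), with overlapping groups.

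None of the tethers was called. HOPS and CORVET, which prepare late and early endosomes for fusion, and the related Vps33b gave 8 genes, all tested and none called, with log2 fold changes from -0.04 for Vps33a to 0.19 for Vps16. Vps11, a core subunit of HOPS and CORVET, was at 85.9 and 79.1 TPM in control and 78.6 and 87.8 TPM in Qk_KO, with overlap. Vps16, which holds Vps33a in the complex, was at 74.9 and 61.2 against 77.2 and 78.0 TPM. GARP and EARP, which tether endosome-derived vesicles at the Golgi and at recycling endosomes, and the SNARE regulator Vps45 gave 6 genes, none called, from -0.30 for Vps54 to 0.29 for Vps53. Vps52 stood at 114 ± 11.8 and 96.2 ± 0.114 TPM (SD, n = 2) and Vps51 at 67.0 ± 0.844 and 62.6 ± 8.28 TPM. The VPS13 proteins, large bridges that carry lipids between membranes, were low in level and none of 4 was called, with Vps13d at 15.5 ± 2.25 and 15.6 ± 0.304 TPM and Vps13c at 8.70 ± 0.898 and 7.67 ± 0.283 TPM.

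Among the ESCRT genes the Vps37 paralogs, of which a single one occupies each ESCRT-I complex, did not all lie on the same side of the controls, and only Vps37a was called. The difference between paralogs was not tested. Vps37a was at 15.9 and 17.7 TPM in control and 9.60 and 9.30 TPM in Qk_KO, with groups well apart. Its mean fell from 16.8 ± 1.32 to 9.45 ± 0.212 TPM (SD, n = 2), or 56.3% of control, with log2 fold change -0.77 (SE 0.13, adjusted p = 0.0491, limma with Benjamini-Hochberg), just inside the threshold. Leaving out control replicates 1 or 2 gave adjusted p = 0.122 and 0.298, and leaving out Qk_KO replicates 1 or 2 gave 0.103 and 0.0972. Vps37a (Entrez gene 52348) spans 40511783 to 40551134 on chromosome 8, plus strand, and shares up to 40 exonic bases with Mtmr7, which was not called (adjusted p = 0.539).

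The other 3 paralogs were higher in both Qk_KO libraries than in either control, as were 33.6% of all genes tested, and none was called. Vps37b was at 63.7 and 48.5 TPM in control and 86.7 and 72.7 TPM in Qk_KO (log2 fold change 0.51, adjusted p = 0.123, limma with Benjamini-Hochberg). It shares up to 918 exonic bases with Hip1r on the other strand. Vps37d was at 13.6 and 11.9 against 18.7 and 18.7 TPM (0.52, adjusted p = 0.0760), and Vps37c at 34.5 and 31.9 against 40.0 and 41.3 TPM (0.29, adjusted p = 0.150). The summed level of the 4 paralogs was 128 and 110 TPM in control and 155 and 142 TPM in Qk_KO, of which Vps37a made up 12.4% and 16.1% in control and 6.19% and 6.55% in Qk_KO. The remaining ESCRT members were not called. Vps28, a core subunit of ESCRT-I, was at 251 and 229 against 255 and 327 TPM, and Vps25 of ESCRT-II at 153 and 149 against 138 and 148 TPM. The ATPase genes Vps4a and Vps4b, which take the ESCRT-III polymer apart, had log2 fold changes of -0.20 and 0.10.

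Of the 3 v-SNAREs only Vamp3 was called. Vamp3, which fuses recycling endosomes with the plasma membrane and was named cellubrevin, was at 92.1 and 109 TPM in control and 53.3 and 58.6 TPM in Qk_KO. The mean fell from 101 ± 12.1 to 55.9 ± 3.74 TPM (SD, n = 2), or 55.5% of control, with log2 fold change -0.83 (SE 0.12, adjusted p = 0.0426, limma with Benjamini-Hochberg), and groups did not overlap. Without control replicates 1 or 2 the adjusted p was 0.0956 and 0.249, and without Qk_KO replicates 1 or 2 it was 0.0952 and 0.0703. Vamp3 (Entrez gene 22319) spans 151047300 to 151057963 on chromosome 4, minus strand.

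Vamp8, the v-SNARE of late endosomes and autophagosome fusion, was at 14.7 and 14.9 TPM in control and 22.5 and 26.7 TPM in Qk_KO, above both controls. It was not called (log2 fold change 0.69, SE 0.13, adjusted p = 0.0536, limma with Benjamini-Hochberg). Under a stricter filter of 5 TPM it was, at 0.0459. It was not called without limma's mean-variance trend (0.0843), with the GC trend removed or with any library left out. Vamp4, of the endosome-to-Golgi route, overlapped between groups at 18.3 ± 1.07 and 19.1 ± 1.43 TPM (SD, n = 2). The ratio of Vamp3 to Vamp8 was 6.25 and 7.35 in control and 2.37 and 2.19 in Qk_KO, with no overlap (exact permutation p = 0.333, two-sided, the smallest possible). Vamp3 lay below and Vamp8 above both controls, so this separation follows from theirs. Vps72 carries a Vps symbol but is a subunit of a chromatin remodelling complex that deposits the histone variant H2A.Z. It was at 133 and 95.5 TPM in control and 160 and 158 TPM in Qk_KO and was not called (adjusted p = 0.131).

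**Figure D3:**
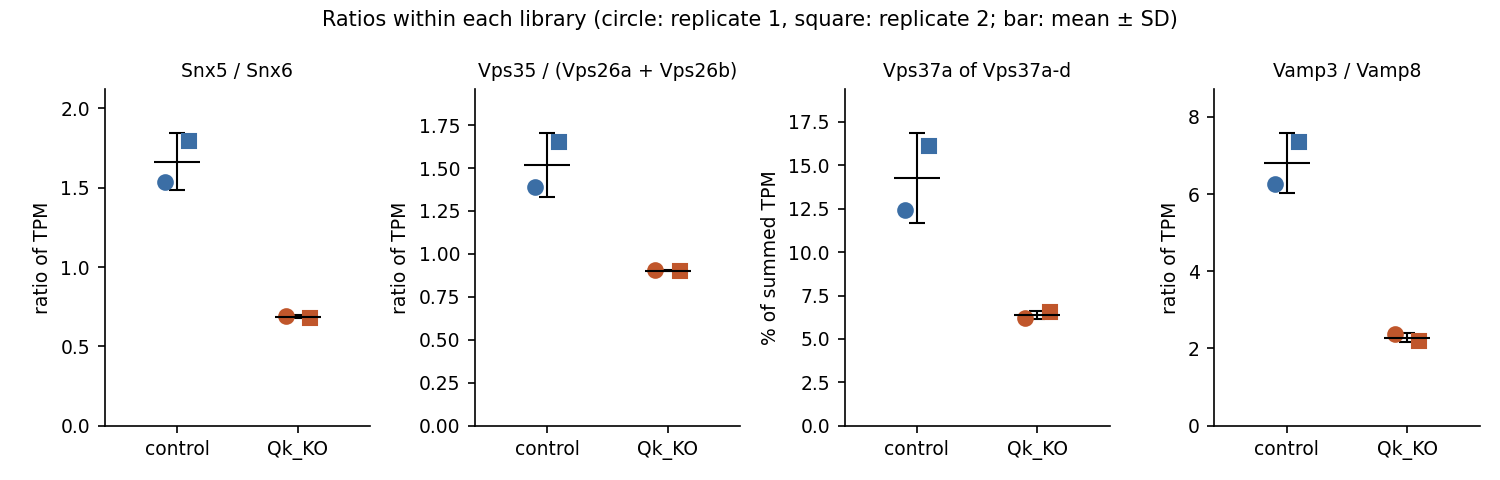
Ratios of TPM within each library (y axes, from 0; the third panel is the percent of summed Vps37 TPM made up by Vps37a), with the mean and SD of the 2 libraries of a group. All 4 ratios are lower in both Qk_KO libraries, as for Vamp3 to Vamp8 at 2.37 and 2.19 against 6.25 and 7.35. The upper term of each ratio is a member called lower, so the ratios restate those calls and are no further evidence.

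The genes that work with these members were examined through 5 lists of partner genes. Of 84 partner genes found, 83 were tested, 3 fell, 1 rose and 79 were not called (limma, Benjamini-Hochberg over all genes), with a median log2 fold change of -0.02. The 4 called are 4.82% of the partner genes tested, near the 3.24% of all genes tested. Of the partner SNAREs, 2 of 13 fell and none was called higher. Snap23, the plasma membrane SNARE that pairs with Vamp3 and Vamp8 in exocytosis, was at 22.4 and 26.3 TPM in control and 7.80 and 6.91 TPM in Qk_KO, or 30.2% of control, with log2 fold change -1.60 (SE 0.15, adjusted p = 0.0225), which exceeded that of Snx5 in size. Stx12, a syntaxin of recycling endosomes that also pairs with Vamp3, was at 127 and 131 against 82.7 and 91.4 TPM (log2 fold change -0.56, SE 0.10, adjusted p = 0.0493). Snap23 was not called without control replicate 1 or 2 (adjusted p = 0.0887 and 0.201), and Stx12 was not called without any 1 of the 4 libraries (0.0778 to 0.283).

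Among retromer, WASH and commander partners 1 of 20 fell. It was A230046K03Rik, now Washc4, a subunit of the WASH complex that builds actin on retromer domains, at 24.3 and 31.6 TPM in control and 14.6 and 14.1 TPM in Qk_KO (log2 fold change -0.91, SE 0.16, adjusted p = 0.0483, limma with Benjamini-Hochberg). No other WASH subunit was called. Tbc1d5, the Rab7 GTPase-activating protein that binds retromer, was at 17.2 and 19.2 against 10.8 and 11.4 TPM and was not called (adjusted p = 0.0548), but it was under a stricter filter of 5 TPM (0.0477) and with the GC trend removed (0.0434). Among the cargo receptors 1 of 14 rose. Sorl1, a sorting receptor that travels with retromer, was at 51.0 and 50.3 TPM in control and 103 and 83.7 TPM in Qk_KO (log2 fold change 0.86, SE 0.13, adjusted p = 0.0426). Without control replicate 2 the adjusted p of A230046K03Rik was 0.275 and that of Sorl1 was 0.249, and both calls were also lost without each of the other 3 libraries. None of 20 ESCRT partners and none of 17 PI3P and PI(3,5)P2 kinases and effectors was called. The largest differences there were those of Stam, Chmp5, Mtm1 and Pik3r4 (SD, n = 2). Stam, of ESCRT-0, was at 45.7 ± 2.63 and 31.3 ± 0.508 TPM (adjusted p = 0.0548, and 0.0469 under the 5 TPM filter). Chmp5, of ESCRT-III, was at 133 ± 2.54 and 93.1 ± 9.06 TPM (0.0586, 0.0546 under the 5 TPM filter and 0.0487 with small RNA genes left out). The phosphatase gene Mtm1 was at 6.88 ± 0.304 and 4.80 ± 0.523 TPM (0.151). Pik3r4, the Vps15 subunit of the PI3P kinase, was at 19.7 ± 0.983 and 25.9 ± 0.948 TPM (0.107). With no filter on low genes no partner gene was called, and without limma's mean-variance trend only Snap23 was.

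**Figure D4:**
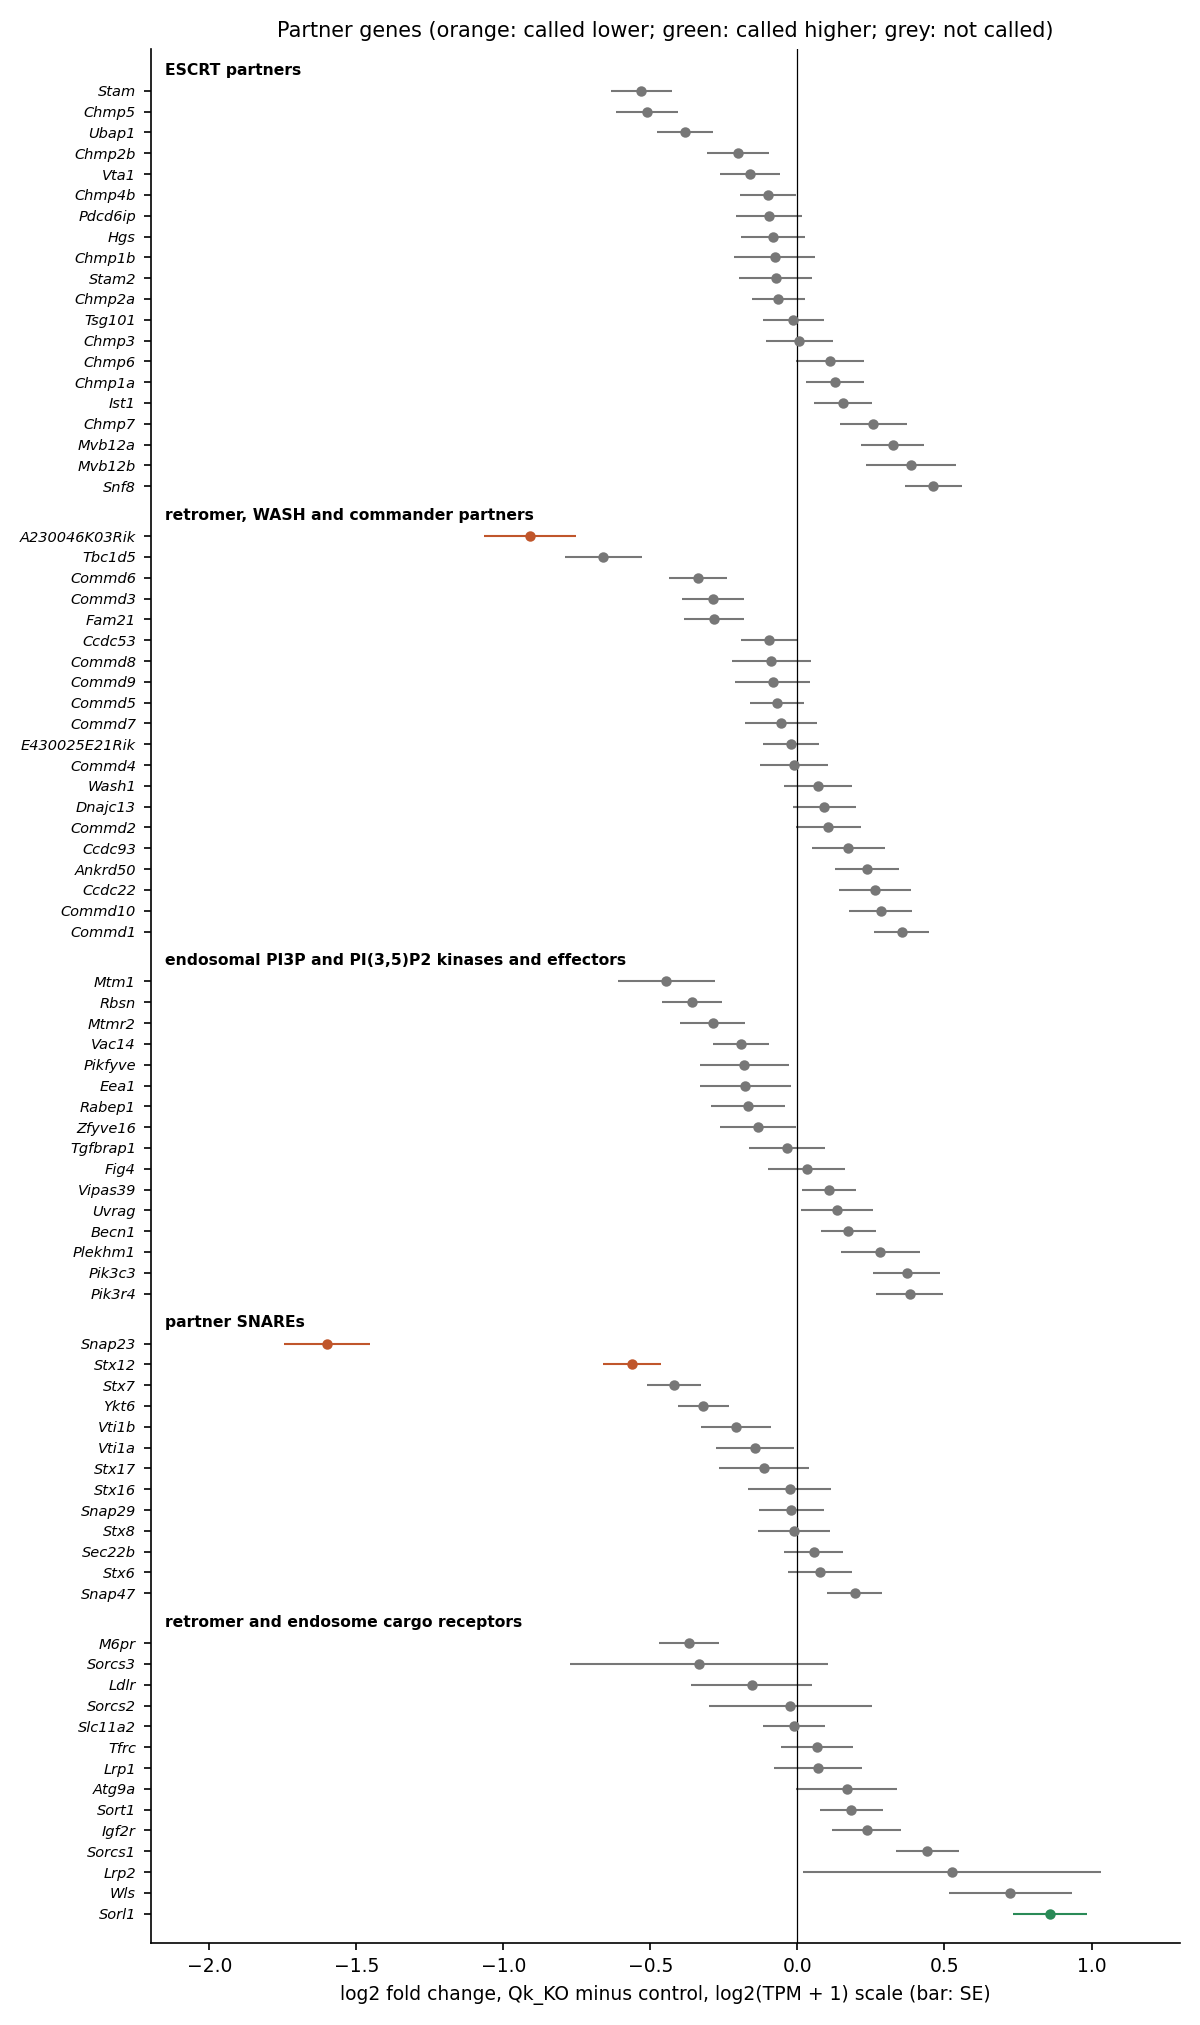
Log2 fold change of the 83 partner genes tested (x axis, Qk_KO minus control on the log2(TPM + 1) scale, bars SE), grouped by list. Snap23 at -1.60, A230046K03Rik at -0.91 and Stx12 at -0.56 are the orange points called lower, and Sorl1 at 0.86 is the green point called higher.

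Transcript base composition moved with the differences. Across the 63 members tested the log2 fold change and the GC content of the longest transcript had a Spearman's rho of 0.43, and across 12462 genes tested rho was 0.25. Genes share these 4 libraries and are not independent replicates, so these values are a description. The GC content was 37.8% for Vps35, 39.8% for Vps37a, 44.4% for Vamp3, 45.2% for Snx5 and 47.5% for Snx27, all below the median of 49.98% over the members. With each library's GC trend removed all 5 were still called lower, with log2 fold changes of -0.71 for Vps35, -0.64 for Vps37a, -0.80 for Vamp3, -1.52 for Snx5 and -0.72 for Snx27, Snx3 and Snx17 joined them, and no member was called higher. Over all genes that alternative called 345 higher and 443 lower, where the original values gave 242 higher and 188 lower.

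**Figure D5:**
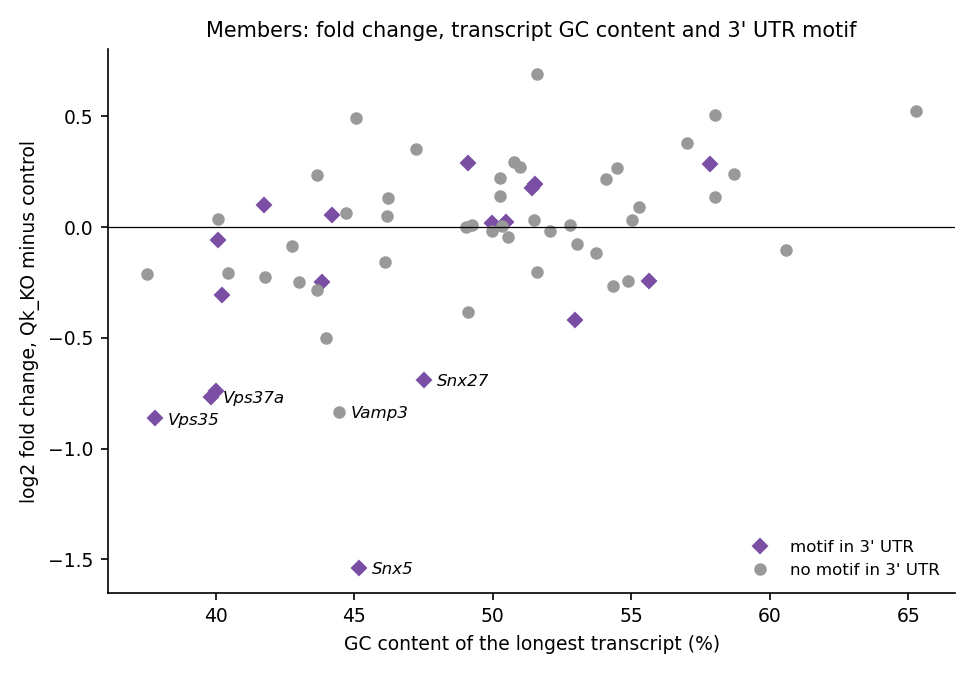
Log2 fold change (y axis, Qk_KO minus control) against GC content of the longest transcript (x axis, %) for the 63 members tested. Diamonds mark the 18 members with ACTAAC or ACTAAT in the 3' UTR, and the 5 named points are the members called lower, at GC contents from 37.8% to 47.5%.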

How the data were processed

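Libraries of poly(A) RNA were read on an Ion Proton machine (labels' protocols). What the authors deposited is gene-level TPM, with 1 table for each library. STAR 2.4.1d, RSEM 1.3.0, mm10 and GRCm38.p4 are named in the submitters' processing notes. For annotation, filters, strand setting and depth nothing is given in the sources used here, so precision is the spread between libraries. Values were taken as log2(TPM + 1), a pseudocount of 1, which understates changes of low genes. Genes averaging 1 TPM or more (13260) were tested for Qk_KO minus control over all 4 libraries with limma 3.58.1 in R 4.3.3 (mean-variance trend). P-values are two-sided and were adjusted over these genes (Benjamini-Hochberg), with a threshold of 0.05.

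Members and lists were chosen with earlier results of these data known. Genes named are called members, the 10 largest differences among non-overlapping members, the 2 most abundant of each role, retromer, v-SNAREs, and called or otherwise the 2 most different partners of each list. Others were chosen after their values were seen. Simulated data had the 13260 genes' means and 200 changed genes. There the fit recovered 52% of 50 genes changed by 1 log2 unit and 86% of 50 changed by 2, with 11 false calls. Changes under 1 log2 unit, the size of every called member but Snx5, were not simulated. Alternatives were other pseudocounts, filters and scaling, no trend, a replicate block, each library left out and, added after seeing the data, no small RNA genes and no GC trend (loess, span 0.5). Positions, exons, 3' UTRs and GC came from GENCODE M21. Figures used matplotlib 3.10.9 in Python 3.11.15.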

Additional observations from a re-analysis of the deposited data

How the results depend on the processing

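Pseudocounts of 0.5 and 0.1 and median-ratio scaling kept 5 members lower and 0 higher. With no filter 0 members, 0 partner genes higher, 0 partner genes lower and 0 genes in all were called by limma (4327 genes had an unadjusted p under 0.05). Without the trend 0 members, 0 partners higher, 1 lower and 41 genes were called. At a mean of at least 5 TPM 1 member was higher, Vamp8, 5 partners were lower and 649 genes called. With small RNA genes left out these counts were 1, 6 and 803. With the GC trend removed 2 partners were higher, 5 lower and 788 genes called, and the members' median log2 fold change was -0.0584. The labels give the groups shared replicate numbers but no pairing. Deviations of same-numbered libraries had a correlation of 0.11 across genes, and with the replicate block 2 members were higher (Vamp8 and Vps37b), 6 members lower (Snx13 was added, adjusted p = 0.0323), 6 partners lower and 1278 genes called.

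Leaving out each library gave 0 to 1 member lower, 0 partners higher, 0 to 1 partner lower and 4 to 148 genes called. Of the named genes, only uncalled ones with differences near 0 changed sign. Under median-ratio scaling these were Snx12 at -0.0304, Snx19 at -0.0273, Snx9 at -0.0158, Vps11 at -0.0221, Vps13d at -0.0196 and Vps26b at -0.000521, and with the GC trend removed the same 6 at -0.0567, -0.0765, -0.0584, -0.114, -0.0508 and -0.0712. Leaving out each library took Snx19 from -0.0660 to 0.0758, Snx9 from -0.110 to 0.143, Vamp4 from -0.0165 to 0.128, Vps13d from -0.128 to 0.151, Snx12 from -0.0944 to 0.0983, Snx18 from -0.112 to 0.0760, Vps11 from -0.0684 to 0.0893, Vps51 from -0.238 to 0.0288 and Vps26b from -0.0375 to 0.101. The causes of these shifts were not tested. TPM keeps no depth, so what depth limits cannot be stated.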
